A study of Mus musculus with 6 samples.

Results

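The BCL2 family genes Bcl2, Bcl2l1, Mcl1 and Bcl2l2, which protect cells from death, and Bcl2l11, Bid, Bax, Bak1, Pmaip1 and Bbc3, which promote it, were followed in splenic plasmacytoid dendritic cells (pDCs), the interferon-secreting dendritic cell type, of wild-type and IRF8-deficient mice. The 10 genes were picked by name as members of 1 family, at a time when earlier results of these data were known, so their shares beside those of all genes are a description. A gene was read from the probe set whose only annotated symbol is that gene, and where several exist from the brightest by the mean of 6 arrays. This gave 9 of the 10 genes, each with 1 such probe set, among 19937 genes in all. Bax was not analysed here. The 6 samples, 3 labelled WT and 3 labelled KO, were total RNA of spleen cells positive for B220 and SiglecH, amplified and hybridised to Affymetrix arrays. The labels give the genotypes as WT and KO and no strain, age, sex, Cre driver or altered part of Irf8, and they do not say whether each sample was its own animal, so p-values cover only the spread of these samples and that spread may be technical.

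BCL2 family proteins decide at the outer mitochondrial membrane whether a cell enters apoptosis. The pro-survival proteins BCL2, BCL-XL (from Bcl2l1), MCL1 and BCL-W (from Bcl2l2) hold the effectors BAX and BAK (from Bak1) in check, and the BH3-only proteins BIM (from Bcl2l11), BID, NOXA (from Pmaip1) and PUMA (from Bbc3) free or activate those effectors, after which cytochrome c is released and caspases are switched on. Mature pDCs are known to rely on BCL2 for survival. MYC, whose repression is named in the title of the series, is known to sensitise cells to apoptosis.

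Values are deposited log2 expression levels, so 1 unit is a doubling, and differences are KO minus WT. Array medians ran from 5.53 to 5.56. The level of the Irf8 probe set was 10.14 ± 0.15 in WT arrays and 10.47 ± 0.32 in KO arrays (SD, n = 3 each). As the altered part of the gene is not given, this value checks nothing, and every direction below rests on the labels. The 14 measured pDC markers had a mean level of 11.0 to 11.15 in the WT arrays and 10.58 to 10.73 in the KO arrays. Of the 14, 0 rose and 4 fell by limma at an adjusted p of 0.05, 28.6% against 4.38% of all genes: Lair1, an inhibitory receptor, by 1.68, Ccr9, a homing receptor, by 0.97, Pacsin1 by 0.78 and Tlr7, an endosomal RNA sensor, by 0.60. The other 10 passed in neither direction, and 4 of the 14 differences were positive. Ly6d differed by 0.42 (limma adjusted p = 0.142), with every KO array above every WT array, and Tcf4 by -0.05 (0.88). Some markers of the sorted cell type thus moved in the same arrays as the BCL2 family genes, and their part in the results below was not tested. KO replicate 1 stood apart. Its mean level was 8.66 over 13 neutrophil genes and 7.86 over 19 cell cycle genes, while the other 5 arrays lay between 4.61 and 5.73 and between 5.9 and 6.49. Results that rest on this array are given with and without it. These are bulk samples, so a change in the kinds of cells collected and a change of RNA within a cell cannot be told apart.

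Of the 9 measured genes, 3 were higher in KO, 1 that protects and 2 that promote death, and 0 were lower. Bcl2 was 3.01-fold, Bid 1.8-fold and Pmaip1 1.48-fold higher. Mcl1 and Bcl2l11 had higher KO means as well but did not pass the test, and Bcl2l1, Bcl2l2, Bak1 and Bbc3 differed by 0.24 log2 units or less. By limma at an adjusted p of 0.05, 3 of 9 genes were higher and 0 lower, while 2.3% of all genes were higher, 2.08% lower and 4.38% one or the other. At an unadjusted p of 0.05, 5 of the 9 passed, against 16.1% of all genes. In 5 of the 9 the KO and WT arrays did not overlap, against 20.4% of all genes, and in 4 of these all KO arrays lay above all WT arrays, against 8.71% of all genes. The median difference of the 9 was 0.57, and that of all genes was -0.04.

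**Figure D1:**
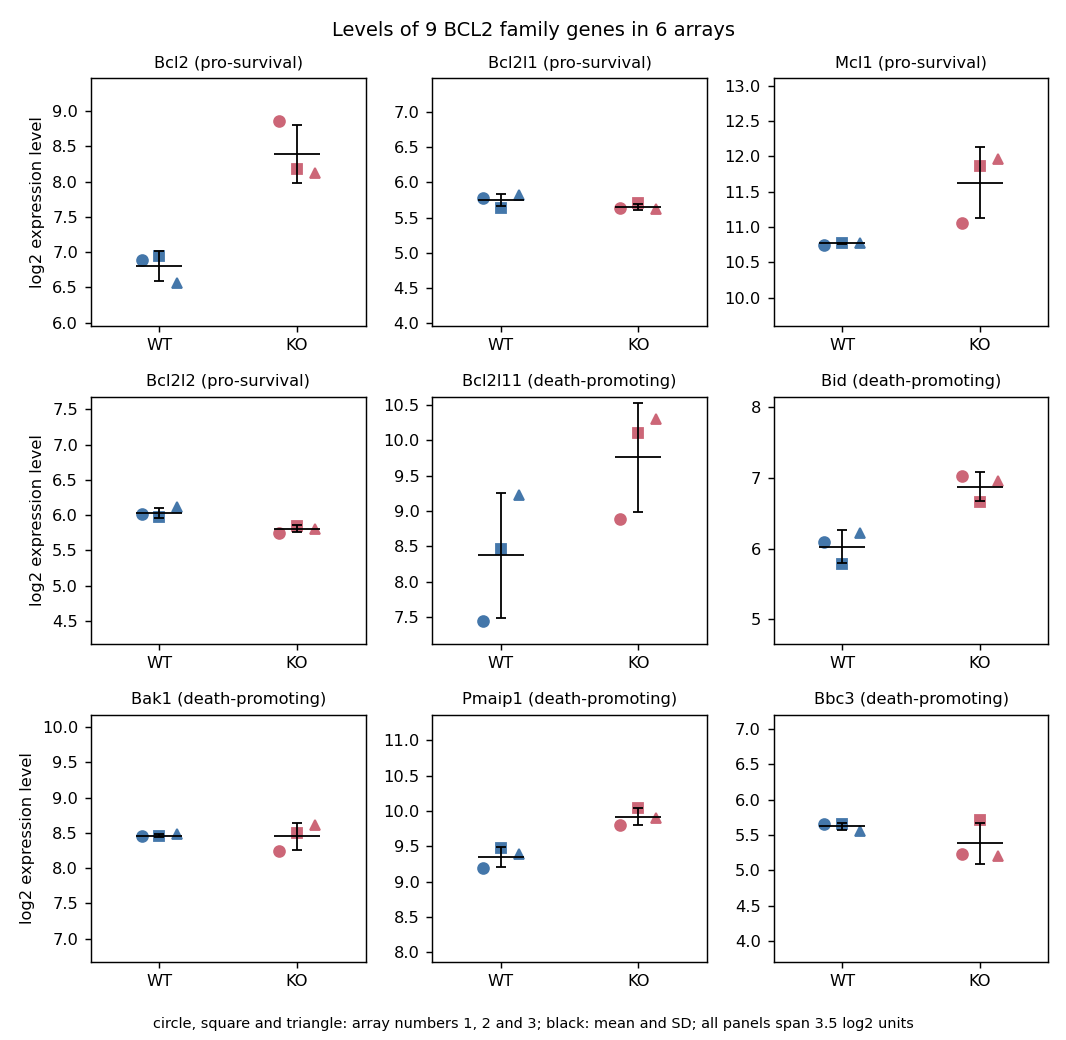
Log2 expression level of 9 BCL2 family genes in 3 WT and 3 KO arrays, 1 panel a gene, with symbols for the array numbers 1, 2 and 3 and black bars for the mean and SD. Bcl2, Mcl1, Bid and Pmaip1 have every KO array above every WT array, Bcl2l2 has every KO array below, and Bcl2l11 spreads most within each genotype.

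Bcl2 encodes the founding pro-survival protein of the family. It measured 6.89, 6.95 and 6.56 in WT replicates 1 to 3 and 8.86, 8.18 and 8.12 in KO replicates 1 to 3. All KO arrays lay above all WT arrays, with a gap of 1.17, and KO replicate 1 was the highest. The mean rose from 6.8 ± 0.21 to 8.39 ± 0.41 (SD, n = 3 each), by 1.59 (SE 0.22, 95% interval 1.09 to 2.09, limma adjusted p = 0.00735). The exact permutation p was 0.10, two-sided, which is the smallest that 3 against 3 arrays can give. Without KO replicate 1 the rise was 1.35 (limma adjusted p = 0.0027), and the call was kept when any other single array was left out (highest adjusted p 0.0366). An unequal-variance test of each gene, adjusted over all genes, did not call Bcl2 (adjusted p = 0.306) or any other of the 9.

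The stretch just upstream of Bcl2 and, with it, that of Bid are shown as examples from genes of the family that rose. That of Pmaip1, which rose too, is not shown. RefSeq promoter windows of the measured genes other than Pmaip1 were read. The 250 bases before the start in build GRCm38.p6 are chr1:106714291-106714540 for Bcl2 and chr6:120916825-120917074 for Bid, both on the minus strand and printed 5′ to 3′ along the gene, with each GC box (GGGCGG on either strand) in capitals.
Bcl2: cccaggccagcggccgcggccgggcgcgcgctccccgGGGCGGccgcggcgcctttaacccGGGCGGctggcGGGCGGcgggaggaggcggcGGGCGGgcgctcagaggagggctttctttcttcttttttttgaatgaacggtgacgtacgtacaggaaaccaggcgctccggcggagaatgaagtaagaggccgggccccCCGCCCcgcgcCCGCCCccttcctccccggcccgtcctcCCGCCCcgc
Bid: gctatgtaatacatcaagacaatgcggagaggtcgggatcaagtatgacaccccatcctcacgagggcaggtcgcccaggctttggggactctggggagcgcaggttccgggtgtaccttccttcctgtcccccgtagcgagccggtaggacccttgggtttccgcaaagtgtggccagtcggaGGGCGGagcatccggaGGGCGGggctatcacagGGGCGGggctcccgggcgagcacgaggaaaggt

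The Bcl2 window is 74.8% G and C and holds 7 GC boxes, none overlapping another, and the Bid window is 63.6% G and C and holds 3. The median over all 32851 promoter windows of this length was 52.4%, and 32.7% of them held a GC box. GC boxes were not particular to genes that rose: the 3 windows of Bbc3, some of them overlapping, held 5, 1 and 7, the 2 of Bcl2l11 held 3 and 2, those of Mcl1 and Bcl2l2 held 1 each, and those of Bcl2l1 and Bak1 held 0. Neither window held, on either strand, the E-box CACGTG that MYC and its partner MAX bind (6.02% of all windows), the pair of GAAA repeats 2 bases apart known from interferon-response elements (2.98%), GGAA followed after 2 bases by GAAA, the composite site of ETS and IRF factors (2.3%), or TATAAA (12.4%). A match or its lack in these windows describes their letters only.

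Mcl1 encodes a short-lived pro-survival protein. It measured 10.75, 10.78 and 10.78 in the WT arrays and 11.06, 11.87 and 11.96 in KO replicates 1 to 3. Every KO array lay above every WT array, KO replicate 1 by only 0.28. The difference was 0.86 (SE 0.23, 95% interval 0.33 to 1.40) and did not pass (limma adjusted p = 0.096, exact permutation p = 0.10). Without KO replicate 1 it was 1.15 and passed (limma adjusted p = 0.00188), as it did with array weights (1.03, 0.0151). Over the other alternatives that leave out a single array the adjusted p ran from 0.203 to 0.3.

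The other pro-survival genes did not rise. Bcl2l1 measured 5.78, 5.64 and 5.82 in WT and 5.63, 5.7 and 5.62 in KO, and the groups overlapped. Its difference was -0.10 (95% interval -0.35 to 0.14, limma adjusted p = 0.737), and 1 probe set does not separate the long, protective splice form from the short one. Bcl2l2 measured 6.01, 5.98 and 6.11 in WT and 5.75, 5.85 and 5.81 in KO. Its KO arrays all lay below its WT arrays, by 0.12, with a difference of -0.23 (95% interval -0.46 to 0.01, limma adjusted p = 0.341). Both genes lay within 0.6 of the array medians, where part of a change can be hidden.

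Bcl2l11 encodes BIM, a BH3-only protein that binds all pro-survival members. It measured 7.44, 8.46 and 9.22 in WT replicates 1 to 3 and 8.88, 10.1 and 10.3 in KO replicates 1 to 3. The groups overlapped, since WT replicate 3 was above KO replicate 1, and the array numbered 1 was the lowest of each genotype. The difference of 1.39, in size second to that of Bcl2 among the 9, had an SE of 0.50 (95% interval 0.22 to 2.56) and did not pass (limma adjusted p = 0.218, exact permutation p = 0.20). Without WT replicate 1 it was 0.92 (adjusted p = 0.417), and without KO replicate 1 it was 1.83 (adjusted p = 0.0501). With both arrays numbered 1 left out, chosen after the data were seen, it was 1.37 and passed (adjusted p = 0.0233).

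Bid encodes a BH3-only protein that caspase 8 and granzyme B activate by cleavage. It measured 6.1, 5.78 and 6.22 in WT and 7.03, 6.66 and 6.96 in KO. The lowest KO array was 0.44 above the highest WT array, as large a gap as the whole WT range. It rose by 0.85 from 6.03 ± 0.23 to 6.88 ± 0.20 (SD, n = 3 each; SE 0.16, 95% interval 0.48 to 1.22, limma adjusted p = 0.0255, exact permutation p = 0.10). The call was lost without WT replicate 1 (adjusted p = 0.0668), WT replicate 2 (0.077), WT replicate 3 (0.05) or KO replicate 3 (0.105), with differences between 0.73 and 0.95. It was kept without KO replicate 1 (0.78, adjusted p = 0.038) and lost with both arrays numbered 1 left out (0.81, 0.057), an alternative added later.

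Pmaip1 encodes NOXA, which binds mainly MCL1. It measured 9.19, 9.47 and 9.39 in WT and 9.8, 10.04 and 9.9 in KO. The KO arrays lay above the WT arrays by 0.33 and were as tight as those of WT. It rose by 0.57 from 9.35 ± 0.14 to 9.92 ± 0.12 (SD, n = 3 each; SE 0.12, 95% interval 0.28 to 0.85), just under the threshold (limma adjusted p = 0.0491, exact permutation p = 0.10). Leaving out any array but KO replicate 1 ended the call (adjusted p 0.0847 to 0.191), as did quantile normalization (0.074) and a variance trend (0.0878), while the difference stayed between 0.49 and 0.63.

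Bak1 and Bbc3 complete the death-promoting genes. Bak1, the effector that forms pores in the outer membrane, measured 8.45, 8.46 and 8.48 in WT and 8.24, 8.5 and 8.61 in KO. The WT values were within 0.03 of each other, and the KO values lay on both sides of them. The difference was -0.01 (95% interval -0.30 to 0.28, limma adjusted p = 0.981), and it changed sign to 0.10 without KO replicate 1. Bbc3, whose product PUMA is a known p53 target, measured 5.66, 5.65 and 5.56 in WT and 5.23, 5.71 and 5.2 in KO. KO replicate 2 lay above all WT arrays and the other KO arrays below them, with a difference of -0.24 (95% interval -0.61 to 0.12, limma adjusted p = 0.535).

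**Figure D2:**
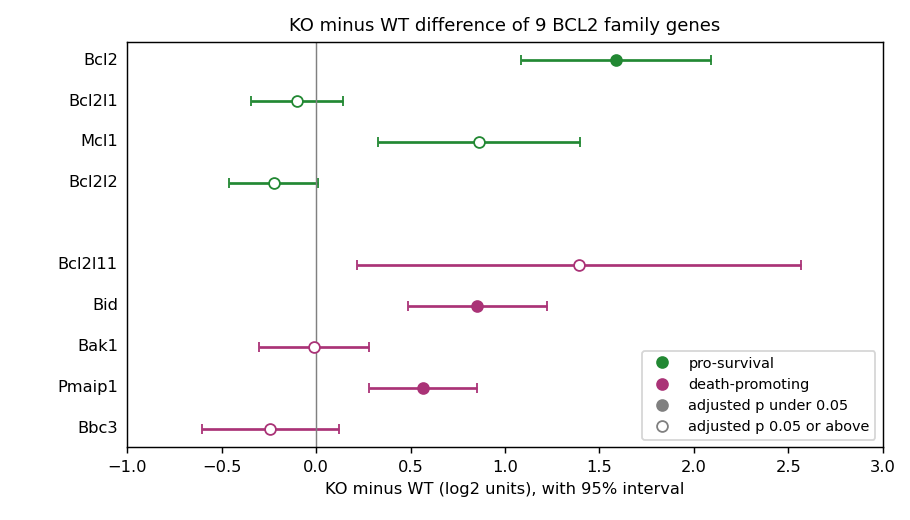
KO minus WT difference of each gene in log2 units with its 95% interval, pro-survival genes in green and death-promoting genes in purple, filled where the limma adjusted p is under 0.05. Bcl2, Bid and Pmaip1 are filled, and the interval of Bcl2l11 is the widest.

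Set against each other, the pro-survival and death-promoting genes moved by like amounts on average. The 4 pro-survival genes shifted from their WT means by 0.49, 0.56 and 0.54 in KO replicates 1 to 3, and the 5 death-promoting genes by 0.27, 0.64 and 0.63. In the WT arrays the same shifts were 0.02, 0.0 and -0.02, and -0.2, 0.0 and 0.2, so the death-promoting mean varied more within a genotype, most of it through Bcl2l11. The pro-survival shift minus the death-promoting shift was 0.22, -0.07 and -0.09 in the KO arrays and 0.22, 0.0 and -0.23 in the WT arrays. The KO mean of 0.02 ± 0.17 (SD, n = 3) lay within the WT spread of 0.22. Each mean leaned on its largest difference, 1.59 for Bcl2 and 1.39 for Bcl2l11, and Bcl2l11 did not pass. A mean over so few chosen genes was not tested. In each class some genes were higher and others were not: Bcl2 beside Bcl2l1 and Bcl2l2 among the protective genes, and Bid and Pmaip1 beside Bak1 and Bbc3 among the others.

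KO replicate 1 differed from the other KO arrays in the members as well. It had the highest Bcl2 and Bid levels of the KO arrays and the lowest Mcl1, Bcl2l2, Bcl2l11, Bak1 and Pmaip1 levels. The 13 neutrophil genes, 0 of which passed the limma test (0 at an unadjusted p of 0.05 as well), shifted from their WT mean by 0.64, -0.18 and -0.46 in WT replicates 1 to 3 and by 3.59, 0.66 and 0.2 in KO replicates 1 to 3. Cell cycle genes, of which 1 of 19 rose and 0 fell, shifted by 1.89, 0.52 and 0.44 in the KO arrays and by at most 0.07 in either direction in the WT arrays. Immediate early and handling stress genes, of which 1 of 19 rose and 0 fell, shifted by 0.18, 0.45 and 0.52 in the KO arrays and by -0.04, 0.17 and -0.13 in the WT arrays. One of them, Atf3, a stress-induced transcription factor named after its values were seen, measured 9.43, 10.85 and 11.01 in WT and 11.17, 12.24 and 12.26 in KO. Atf3 did not pass (limma adjusted p = 0.156). It was lowest in the array numbered 1 of each genotype, as Bcl2l11 was. Ier3, the 1 gene of this list that rose, measured 8.5, 7.62 and 7.96 in WT and 10.96, 10.21 and 10.36 in KO (limma adjusted p = 0.0026). It was highest in the array numbered 1 of each genotype. Other genes of the list went either way, such as Fosb and Klf4, lowest there, and Fos and Btg2, highest there. The part of these lists in the levels of Bcl2, Mcl1 and Bcl2l11 was not tested. The rise of Bcl2 was 1.35 without KO replicate 1, so it was not carried by that array alone. The KO arrays that remain were shifted in cell cycle genes too (0.52 and 0.44).

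**Figure D3:**
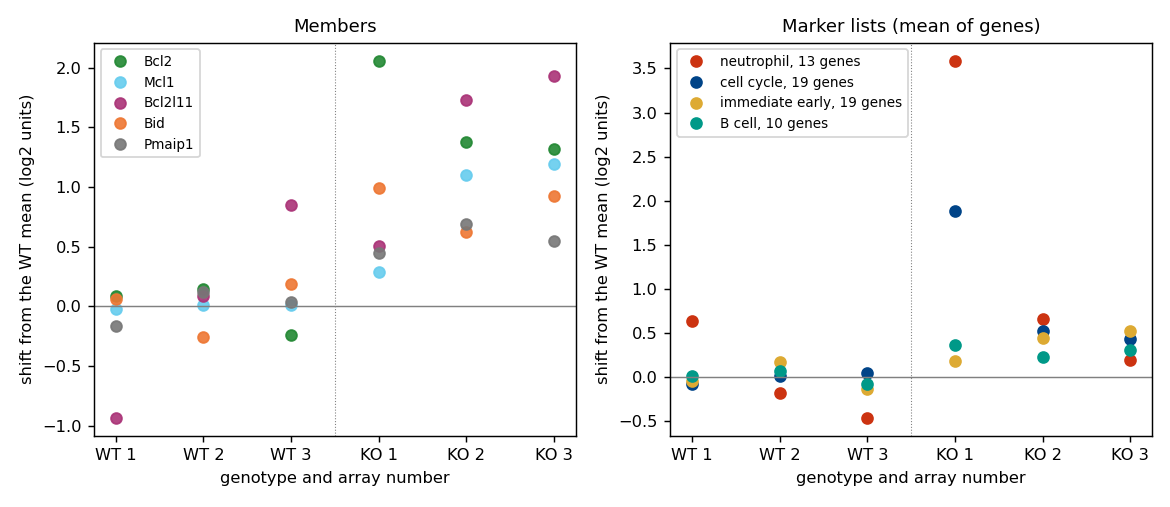
Shift from the WT mean in log2 units in each array, for 5 BCL2 family genes on the left and for the mean of 4 marker lists on the right. KO replicate 1 stands out in the neutrophil list (3.59) and the cell cycle list (1.89), where Bcl2 and Bid are highest and Mcl1, Bcl2l11 and Pmaip1 are lowest among the KO arrays.

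Genes used as markers of other cell types, which can carry their own BCL2 family levels, were checked in the same arrays. Some had high mean WT levels in these sorted cells, such as Cd68 (11.32), Cd8b1 (10.29), Clec9a (10.16), Cd4 (10.05) and Cd8a (9.66). Others of the same lists were lower, such as Cd3e (5.8), Adgre1 (4.59) and Xcr1 (4.49). Which cells the signal of each gene came from was not tested. Of 10 B cell genes 2 rose and 0 fell, with mean levels of 5.56 to 5.71 in WT and 5.87 to 6.01 in KO. Cd79a, a chain of the B cell receptor complex, rose by 1.65 to a KO mean of 5.72, and Fcer2a by 0.60 to the same mean. Pax5 and Ebf1 had every KO array above every WT array (0.32 and 0.57) but did not pass (limma adjusted p 0.186 and 0.195). Ms4a1, which encodes CD20, stayed between 3.13 and 3.91 in all arrays. Of the 10 differences, 6 were positive. Of 9 T cell genes 2 rose and 2 fell, with mean levels of 7.15 to 7.37 and 7.07 to 7.37. Cd8a and Cd5 rose by 1.51 and 1.09, and Cd4 and Cd8b1 fell by 1.18 and 1.16. Cd3e, Cd3d, Cd3g, Lat and Bcl11b passed in neither direction. Among 9 NK cell genes 0 rose and 1 fell (4.76 to 5.03 and 4.92 to 5.33). Of 11 macrophage and monocyte genes 0 rose and 2 fell, Cd68 and C1qb. The mean level of the 11 was 6.28, 7.19 and 7.14 in WT replicates 1 to 3 and 5.85 to 6.17 in KO. C1qc, Vcam1 and Spic were higher in WT replicates 2 and 3 than in WT replicate 1, while Cd68 was not. Of 13 conventional dendritic cell genes 3 rose and 4 fell (6.69 to 6.88 and 5.78 to 5.97). Clec9a fell by 6.3, Cd209a by 3.73, Clec10a by 2.62 and Cadm1 by 1.71. Itgam, Itgax and Tlr3 rose by 1.9, 1.78 and 0.87, and Xcr1, Batf3 and Zbtb46 passed in neither direction. A low level on this log2 scale, such as that of Ms4a1, does not show whether a marker was present or absent. The part of these lists in the differences of the BCL2 family was not tested.

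The wider apoptosis pathway was read from 7 lists of 88 measured genes besides the members. By limma 4 of the 88 rose and 4 fell, 9.09% together against 4.38% of all genes, and the median difference was 0.04 against -0.04 over all genes. Calls lay in the list of inhibitors of apoptosis and in that of FOXO factors, kinases and related genes, and in no other list apart from Pmaip1 itself.

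Of 13 other BCL2 family genes, 0 passed limma in either direction, 3 had an unadjusted p under 0.05 and the median was 0.04. Bmf, another BH3-only gene, was the farthest from no change. It measured 7.02 in WT and 7.61 in KO, with every KO array above every WT array, and a difference of 0.58 (limma adjusted p = 0.0681). Bcl2l13, a family member of the outer mitochondrial membrane, differed by 0.44 (adjusted p = 0.502). The Bcl2a1 genes of this list were not analysed here.

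Downstream of the mitochondria, 0 of 16 genes of the apoptosome, caspases and mitochondrial release passed limma, 4 had an unadjusted p under 0.05 and the median was -0.07. Casp6, an executioner caspase, had a mean level of 5.88 ± 0.31 in WT and of 6.93 ± 0.73 in KO (SD, n = 3 each; difference 1.05, adjusted p = 0.176), with 7.74 in KO replicate 3. Htra2, a mitochondrial protease, differed by 0.62 (adjusted p = 0.264). Of 14 genes of death receptors and necroptosis 0 passed, 0 also at an unadjusted p of 0.05, with a median of -0.07. The largest differences there were 0.47 for Tnfsf10, the ligand TRAIL (adjusted p = 0.396), and -0.31 for Tnfrsf1a, a TNF receptor (0.338). Of 8 genes of MCL1 turnover 0 passed, 1 had an unadjusted p under 0.05 and the median was -0.03. Btrc, a ubiquitin ligase subunit, differed by -0.58 (adjusted p = 0.128) and Cdc20 by 0.40 (0.705), the latter through KO replicate 1, at 6.5 against 4.96 and 5.08 in the other KO arrays.

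In the list of 9 inhibitors of apoptosis and related genes, 1 rose and 3 fell, with a median of 0.19. Those that moved are best known for other work, the 1 that rose as an antagonist of an inhibitor, and Xiap, Birc2, Birc3, Birc5 and Birc6 passed in neither direction. Naip5, Naip6 and Naip2 carry the BIR domains of this family but are known as inflammasome receptors for bacterial flagellin and secretion proteins. Naip5 measured 7.64, 7.69 and 7.99 in WT and 4.22, 5.14 and 4.92 in KO. Every KO array lay below every WT array, and Naip5 fell by 3.01 (SE 0.24, limma adjusted p = 0.00068). Naip6 fell by 2.71 (adjusted p = 0.0026) and Naip2 by 1.54 (0.00128). These are similar genes whose probe sets can share signal, so the 3 falls may not be separate. Xaf1, an interferon-induced antagonist of XIAP, rose 2.71-fold from 8.57 ± 0.06 to 10.01 ± 0.16 (SD, n = 3 each; adjusted p = 0.000816). The calls of all 4 were kept when any single array was left out. Xiap itself differed by 0.47 (adjusted p = 0.342) and was named after its values were seen.

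Of 13 p53 axis genes, 1 rose and 0 fell, with a median of -0.05. The 1 was Pmaip1, and the p53-induced genes Mdm2, Ccng1, Zmat3 and Phlda3, named after their values were seen, differed by 0.15, -0.34, -0.27 and -0.22 (limma adjusted p 0.844, 0.141, 0.333 and 0.596). Aen, Fas, Perp and Sesn2, likewise named after their values were seen, differed by 0.05, 0.05, -0.06 and -0.16. The 12 genes of this list other than Pmaip1 passed in neither direction, and 6 of the 13 differences were positive. The part of p53 in the rise of Pmaip1 was not tested.

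In the list of 18 FOXO factors, kinases that act on BCL2 proteins and related genes, 3 rose and 1 fell, with a median of 0.12. Foxo1, a factor of the FOXO family that can induce Bcl2l11, measured 7.8, 7.91 and 7.94 in WT and 8.91, 8.94 and 9.11 in KO. The groups were far apart and tight, and it rose 2.15-fold (log2 difference 1.10, SE 0.11, limma adjusted p = 0.00188), whichever array was left out. Pim1, a kinase that inactivates the BH3-only protein BAD, rose 2.77-fold (adjusted p = 0.0451). Mapk8, the stress kinase JNK1 that phosphorylates BIM and BMF, rose 1.74-fold (adjusted p = 0.0361). Dynll2, a dynein light chain that binds BMF, fell by 1.05 (adjusted p = 0.0111). The calls of Pim1 and Mapk8 were lost without any single array other than KO replicate 1 (highest adjusted p 0.168 and 0.127), and that of Dynll2 without WT replicate 2 or 3 or KO replicate 2 (highest 0.0526).

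**Figure D4:**
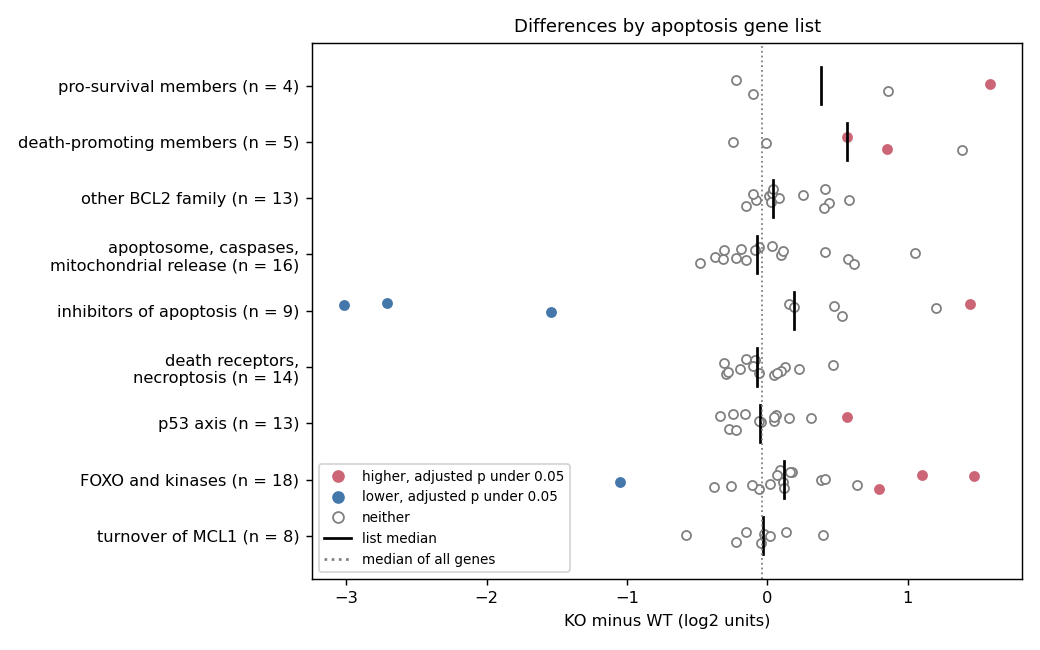
KO minus WT difference in log2 units of each measured gene, by list, with red for genes higher and blue for genes lower at a limma adjusted p under 0.05, a black bar for the list median and a dotted line for the median of all genes (-0.04). The falls of Naip5, Naip6 and Naip2 lie far from the rest of the inhibitors. The medians of the lists of death receptors (-0.07) and of MCL1 turnover (-0.03) lie near 0, while single genes such as Btrc (-0.58) and Tnfsf10 (0.47) lie farther out.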

How the data were processed

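Per the labels' protocols, RNA was amplified with a NuGen kit and labelled with biotin. The deposited values were log2 expression levels of 34760 probe sets. The log2 scale and the common level of the arrays were read from the values, while how the authors normalized them is not given in the sources used here. Array number limits the precision.

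Of the probe sets, 21640 had 1 gene symbol in the platform annotation, and the brightest of each gene gave 19937 genes. Genotypes were compared with limma 3.58.1 in R 4.3.3 (lmFit, eBayes, no covariate), two-sided, with Benjamini-Hochberg adjustment over all genes and a threshold of 0.05. Exact permutation tests used all 20 relabellings. The fit was first tested on simulated data with known changes. These had independent noise and no array that stood apart, unlike the real arrays. Figures used matplotlib 3.10.9.

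All 9 measured members and, from each pathway list, at most 5 genes past the threshold, or the 2 largest differences where none passed, were named by rule. The members and lists were chosen with earlier results of these data known. Alternatives were quantile normalization, median centring, bright genes alone, the mean of probe sets, a variance trend, array weights (statmod 1.5.0), an unequal-variance test per gene, a replicate block and the omission of each array. Leaving out both arrays numbered 1 was added after the data were seen.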

Additional observations from a re-analysis of the deposited data

How the results depend on the processing

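Over 15 alternatives (14 for Bbc3, which the filter for bright genes left out), 8 of the 9 genes kept the sign of their difference. Bak1, at -0.012, turned to 0.048 with array weights, to 0.087 without both arrays numbered 1 and to 0.095 without KO replicate 1, and leaving out single arrays gave -0.093 to 0.095. Of the 9 genes, 3 passed in the main test, 5 with the replicate block and 0 with the unequal-variance test (4 at an unadjusted p of 0.05, and 5 by limma), and leaving out single arrays gave 1 to 4. Of the 88 other apoptosis genes, 8 passed in the main test and 0 with the unequal-variance test (13 at an unadjusted p of 0.05, and 20 by limma), and leaving out single arrays gave 5 to 12. Over all genes the count of 874 became 1363 with array weights, 1362 with the replicate block, 4 with the unequal-variance test, 1382 without both arrays numbered 1 and 451 to 1499 when single arrays were left out. The pro-survival minus death-promoting shift of 0.02 became -0.17 among bright genes, where Bbc3 is missing, and -0.09 to 0.13 when single arrays were left out.

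The labels do not say that equal replicate numbers mark a shared animal or day. Deviations from the group means correlated across genes by 0.379, 0.097 and 0.252 for numbers 1, 2 and 3, and by -0.306 to 0.2 for unequal numbers. The WT array of each number correlated most with the KO array of the same number. For numbers 2 and 3 this was narrow, 0.097 against 0.058 and 0.252 against 0.2. Read from the KO arrays it did not hold throughout, as KO replicate 2 correlated more with WT replicate 3 (0.2) than with WT replicate 2 (0.097). As the labels state no pairing, a pairing by number was not established. With the replicate block Mcl1 (adjusted p = 0.044, over all its alternatives 0.00188 to 0.554) and Bcl2l11 (0.00256, over its alternatives 0.00256 to 0.577) passed beside Bcl2, Bid and Pmaip1. Low levels such as those of Bcl2l1 and Bbc3 limit what a difference can show.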

Other observations

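Some genes outside the 10 were named after their values were seen. Bcl2a1c, a gene of the BCL2A1 cluster with similar neighbours, measured 4.08, 4.15 and 4.2 in WT and 5.08, 4.87 and 4.51 in KO, a difference of 0.68 (SE 0.16, limma adjusted p = 0.0582), with every KO array above every WT array at low levels. Bnip2, which encodes a protein found by its binding to BCL2, measured 9.16, 9.09 and 9.16 in WT and 9.56, 9.46 and 9.61 in KO, a difference of 0.41 (limma adjusted p = 0.0751). Birc5, which encodes survivin, a protein of dividing cells from the list of inhibitors of apoptosis, measured 8.44 in KO replicate 1 and 5.72 and 5.76 in the other KO arrays, against 4.98 to 5.74 in WT (limma adjusted p = 0.47).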
